A study of Homo sapiens with 16 samples.

Results

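Mitotic genes code for the machinery that takes a cell from late G2 through chromosome segregation to cytokinesis, and 37 of them were followed here in human embryonic stem cells, out of 60675 gene identifiers in the count table. The 37 genes were set by name from their known roles, with earlier results of these data known, and each row was found by its Ensembl identifier. All 37 passed the filter on low counts that kept 19772 genes. They were ordered in 8 role groups: entry into mitosis (CCNA2, CCNB1, CCNB2, CDK1, CDC25B, CDC25C), mitotic kinases (AURKA, PLK1), the spindle checkpoint (BUB1, BUB1B, BUB3, MAD2L1, TTK), kinetochore and centromere (NDC80, NUF2, SPC24, SPC25, CENPA, CENPE, CENPF), the chromosomal passenger complex (AURKB, INCENP, BIRC5, CDCA8), spindle motors and midzone (KIF11, KIF20A, KIF23, KIF2C, TPX2, PRC1), anaphase onset (CDC20, UBE2C, PTTG1, ESPL1), and chromosome structure and cytokinesis (TOP2A, MKI67, ANLN).

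Polyadenylated RNA was sequenced from H9, an established human embryonic stem cell line, in 16 libraries. The groups were SALL4, VRTN, DSCC1 and SEPHS1 siRNA with 3 libraries each, and the controls were 2 libraries with siRNA to Renilla Luciferase and 2 with an siRNA labelled Control. All groups, controls included, carried Rex1-EGFP, an EGFP gene under the Rex1 promoter, and were grown without feeder cells on Matrigel in mTeSR1 medium. Every group received pooled siRNAs at 30 to 50 nM. Those to SALL4, DSCC1, SEPHS1 and Luciferase were esiRNAs, those to VRTN came from another supplier, and the labels do not give the kind of the Control siRNA. Cells with SALL4 or VRTN siRNA were harvested at 48 h, and cells with DSCC1 or SEPHS1 siRNA at 72 h. The labels give no time for the controls, so in each comparison with controls time and knockdown cannot be told apart. Each comparison set a knockdown (n = 3) against the same 4 control libraries, so the 4 comparisons share their controls.

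Entry into mitosis is driven by CDK1 bound to cyclin A or B, which CDC25 phosphatases activate. Anaphase begins when the anaphase-promoting complex, switched on by CDC20, marks securin (PTTG1) and cyclin B for degradation, and the spindle checkpoint holds it back until every kinetochore is attached. Transcripts of these genes peak in G2 and mitosis, and embryonic stem cells, which divide fast with a short G1, hold many of them at a high level. Many of their promoters carry a cell cycle genes homology region (CHR), bound by MuvB complexes, downstream of CCAAT boxes, bound by NF-Y.

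The promoters of the 4 genes that passed the test in a comparison and had an entry in the RefSeq promoter table (GRCh38.p14), with that of CCNB1 as a well-known CHR promoter, are printed to show which of them carry these motifs. Each runs on the gene's strand from 250 bases before the start of transcription to 50 after it. Capitals mark the CHR, searched as TTTGAA or TTTAAA on either strand, and CCAAT or its reverse complement ATTGG; matches may overlap.
PTTG1: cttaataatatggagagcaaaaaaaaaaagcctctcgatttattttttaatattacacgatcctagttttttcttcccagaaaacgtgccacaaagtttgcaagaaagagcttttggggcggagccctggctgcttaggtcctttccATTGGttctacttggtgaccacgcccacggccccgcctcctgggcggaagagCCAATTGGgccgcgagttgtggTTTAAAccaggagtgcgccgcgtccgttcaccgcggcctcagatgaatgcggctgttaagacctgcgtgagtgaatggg
CCNB2: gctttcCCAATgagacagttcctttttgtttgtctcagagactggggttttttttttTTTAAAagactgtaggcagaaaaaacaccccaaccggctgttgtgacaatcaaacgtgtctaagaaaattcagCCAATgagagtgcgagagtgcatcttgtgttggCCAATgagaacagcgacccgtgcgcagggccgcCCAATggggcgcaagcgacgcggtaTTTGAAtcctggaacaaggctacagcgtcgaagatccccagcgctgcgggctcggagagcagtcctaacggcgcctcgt
CCNB1: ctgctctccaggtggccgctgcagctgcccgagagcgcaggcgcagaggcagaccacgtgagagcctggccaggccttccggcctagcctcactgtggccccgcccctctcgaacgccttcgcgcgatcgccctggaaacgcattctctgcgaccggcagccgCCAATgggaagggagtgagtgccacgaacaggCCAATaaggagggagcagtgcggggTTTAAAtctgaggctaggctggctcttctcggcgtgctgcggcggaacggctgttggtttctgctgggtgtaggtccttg
BUB1: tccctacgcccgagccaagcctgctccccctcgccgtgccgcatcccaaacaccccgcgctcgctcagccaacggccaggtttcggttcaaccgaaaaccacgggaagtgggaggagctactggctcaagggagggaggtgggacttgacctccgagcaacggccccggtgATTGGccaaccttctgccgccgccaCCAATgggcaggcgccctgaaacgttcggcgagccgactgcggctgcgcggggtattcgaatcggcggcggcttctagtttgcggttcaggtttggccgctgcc
CDC25B: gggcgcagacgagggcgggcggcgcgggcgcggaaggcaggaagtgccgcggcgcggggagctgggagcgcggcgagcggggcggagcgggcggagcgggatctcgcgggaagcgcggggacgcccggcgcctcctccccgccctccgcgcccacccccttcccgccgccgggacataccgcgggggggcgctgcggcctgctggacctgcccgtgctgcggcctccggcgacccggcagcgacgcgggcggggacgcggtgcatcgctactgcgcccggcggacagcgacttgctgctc
These lie at chr5:160421605-160421904 on the plus strand (PTTG1), chr15:59104896-59105195 on the plus strand (CCNB2), chr5:69166900-69167199 on the plus strand (CCNB1), chr2:110678014-110678313 on the minus strand (BUB1) and chr20:3786701-3787000 on the plus strand (CDC25B). A CHR began 29 bases before the start in PTTG1 and in CCNB2 and 30 bases before it in CCNB1, and the nearest CCAAT upstream of it began 48, 54 and 55 bases before the start. CCNB2 held 4 CCAAT matches, PTTG1 held 3, CCNB1 and BUB1 held 2 each. BUB1 had no CHR by these letters, and CDC25B had neither motif in this window. AURKA, TTK, BUB3, BIRC5, TPX2 and UBE2C had no entry.

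Over the 31 genes with a promoter entry, 25 (80.7%) held a CHR, against 24.0% of all 35116 promoters of this length. CCAAT was present in 23 (74.2%), against 34.6%, and both motifs together in 19 (61.3%), against 9.27%. In 18 of the 31 a CHR began within the 60 bases before the start. A match is a run of letters and not a measured binding site. Median log2 fold changes of the 19 genes with both motifs and of the 12 with one or neither were -0.15 and -0.14 in the SALL4 comparison. They were 0.07 and 0.19 with VRTN, -0.05 and -0.04 with DSCC1 and 0.05 and 0.25 with SEPHS1 siRNA. For SALL4 over VRTN siRNA they were -0.20 and -0.42, and for DSCC1 over SEPHS1 siRNA 0.05 and -0.04. These medians were not tested.

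Throughout, levels are normalised counts (CPM, TMM scaling), differences are log2 fold changes with their SE, and a gene is called where edgeR's quasi-likelihood test gave a Benjamini-Hochberg adjusted p under 0.05 over all 19772 genes. The protocol names 3 independent biological replicates but nothing ties libraries to separate cultures beyond that, and p-values measure the spread between these libraries. Library totals were 18597262 to 28662389 counts, and mitochondrial genes took 27.9 to 33.4% of the counts in controls. Their share was 26.4 to 34.8% with SALL4, 29.2 to 36.9% with VRTN, 33.6 to 39.2% with DSCC1 and 38.7 to 45.5% with SEPHS1 siRNA. The targeted transcripts were checked first. VRTN was at 19.3 to 23.7 CPM against 134 to 154 in controls and SEPHS1 at 49.1 to 79.3 against 381 to 440. SALL4 was at 193, 213 and 235 CPM against 243 to 303 (adjusted p = 0.0562), and DSCC1 at 0.601 to 0.939 against 3.30 to 5.16 (adjusted p = 0.486), both short of the threshold. DSCC1 was read 13, 24 and 19 times with its own siRNA, 5, 42 and 56 times with SEPHS1 siRNA and 70 to 129 times in controls. A low DSCC1 count was thus not confined to the DSCC1 group. Of 8 pluripotency markers 7 were read in every group, among them POU5F1 at 186 to 262 and SOX2 at 178 to 234 CPM, while ZFP42, the gene named Rex1, was listed at 0 in all 16 libraries.

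Replicate 3 of SALL4 siRNA stood apart from the other 2 libraries of its group. CDKN1A, the p21 inhibitor of cyclin-dependent kinases, was at 192 and 178 CPM in replicates 1 and 2 and at 31.7 in replicate 3, within the control range of 28.9 to 72.4. COL1A1, a collagen gene, was at 1250 and 1069 CPM in the first pair and at 479 in replicate 3, against 1534 to 1760 in controls. VRTN replicate 3 deviated with SALL4 replicate 3: over 5526 genes their deviations from their group means correlated at 0.363. For SALL4 replicate 3 with replicate 3 of DSCC1 and SEPHS1 siRNA this was -0.116 and -0.0348. With Luciferase replicate 2 it was 0.4225 for SALL4 replicate 3 and 0.3575 for VRTN replicate 3, and with Control replicate 2 it was 0.2205 and 0.1951. In a control group of 2 libraries, replicate 1 takes the same values with the sign reversed. Summed mesenchyme markers were lowest of each group in SALL4 and VRTN replicate 3 (787 and 790 CPM) and endoderm markers highest (12.4 and 23.4). Whether these 2 libraries shared a batch with each other or with a control library was not tested. For the mitotic genes called in a comparison with SALL4 siRNA, values without single SALL4 libraries are given where they end the call or move it by over 1.5 times.

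The mitotic genes as a whole stayed near their control level in every knockdown. Their summed level was 2310 to 2467 CPM in the 4 controls, 2160 to 2313 with SALL4, 2431 to 2624 with VRTN, 2467 to 2497 with DSCC1 and 2522 to 2559 with SEPHS1 siRNA. The median log2 fold change over the 37 genes was -0.13 with SALL4, 0.11 with VRTN, -0.01 with DSCC1 and 0.07 with SEPHS1 siRNA, where the medians over all 19772 genes lay between -0.02 and 0.02. With single libraries left out the median ranged from -0.16 (without SALL4 replicate 3) to -0.08 (without SALL4 replicate 1) for SALL4, from 0.05 (without VRTN replicate 2) to 0.17 (without VRTN replicate 3) for VRTN and from 0.07 to 0.14 (without Luciferase replicate 1) for SEPHS1 siRNA. For DSCC1 siRNA it ran from -0.04 (without DSCC1 replicate 1) to 0.03 (without Control replicate 1), so its sign is not fixed. In these bulk samples fewer cells in G2 or mitosis and less of the RNA per cell cannot be told apart.

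**Figure D1:**
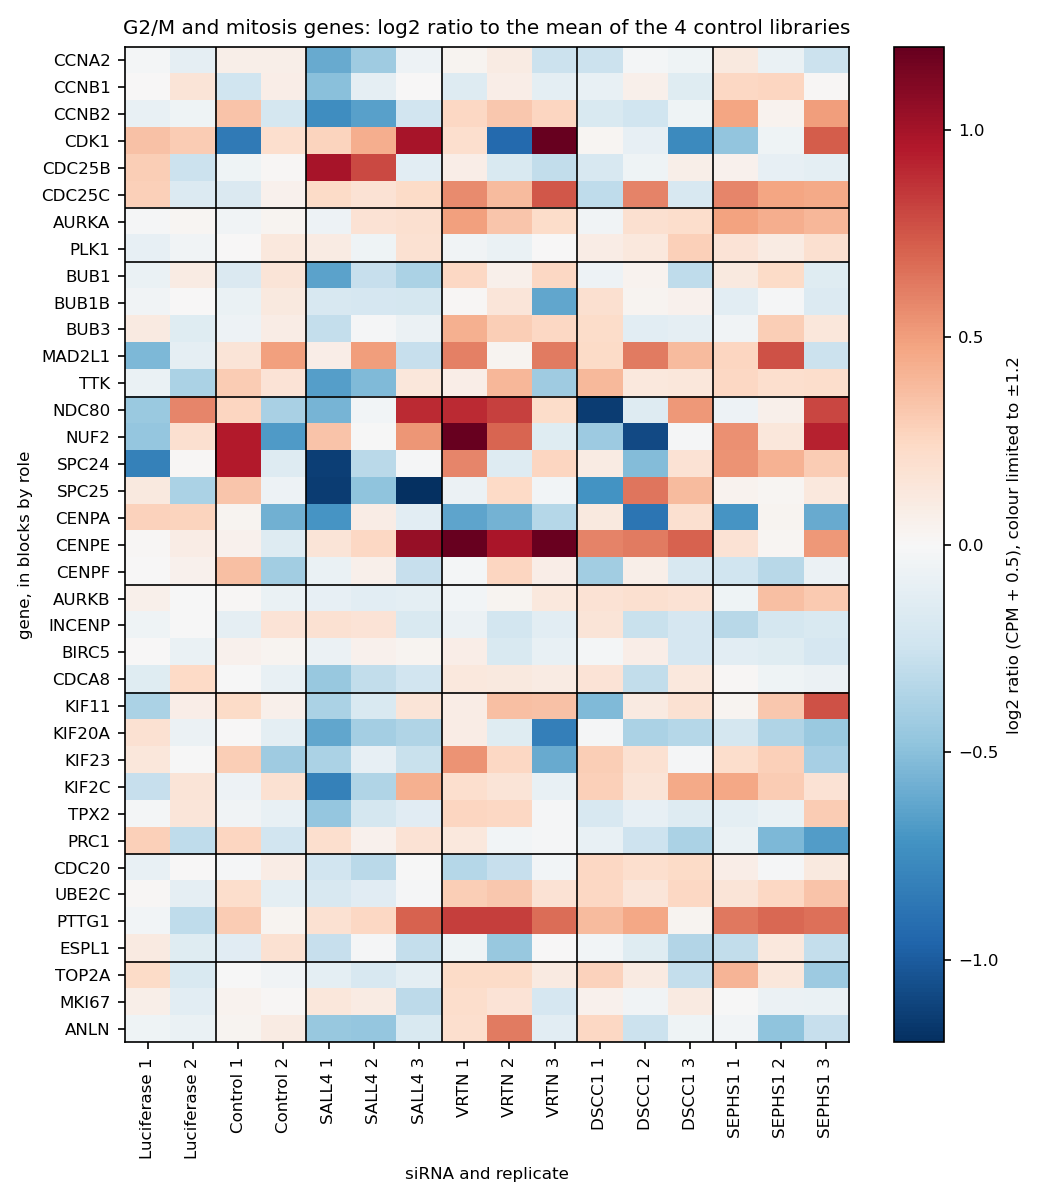
Colour shows the log2 ratio of each of the 37 genes (rows, in blocks by role) to the mean of the 4 control libraries, in CPM plus 0.5, for each library (columns, by siRNA and replicate). The PTTG1 row is above the control mean in all 3 VRTN and all 3 SEPHS1 libraries, and the noisiest rows are kinetochore genes and CDK1, which had few counts.

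The test called few of them. With SALL4 siRNA 1 of 37 was called, CDC25B, which was higher, against 2.98% of all genes tested (1.85% higher and 1.13% lower). With VRTN siRNA 1 of 37 was called, PTTG1, higher, against 1.13% of all genes (0.445% higher and 0.683% lower). With SEPHS1 siRNA it was PTTG1 again, higher, against 1.53% of all genes (0.602% higher and 0.931% lower). With DSCC1 siRNA edgeR called 0 of 37, against 0.0455% of all genes (0.0455% higher and 0% lower). At an unadjusted p under 0.05, 3 were higher and 0 lower, against 667 and 488 of all 19772 genes. DESeq2 and limma-voom also called 0 of 37. A count of 0 or 1 in 37 is near these backgrounds.

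The precision of these values bounds what could have been missed. The 95% interval of the fold change lay within 2-fold either way for 31 of 37 genes with SALL4, 29 with VRTN, 31 with DSCC1 and 30 with SEPHS1 siRNA. NUF2, CDK1, CENPA and CENPE, which had few reads, were outside in all 4. The interval lay within 1.5-fold for only 17 of 37 genes with SALL4, 20 with VRTN, 22 with DSCC1 and 19 with SEPHS1 siRNA. Changes under 2-fold could thus have been missed in many genes.

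**Figure D2:**
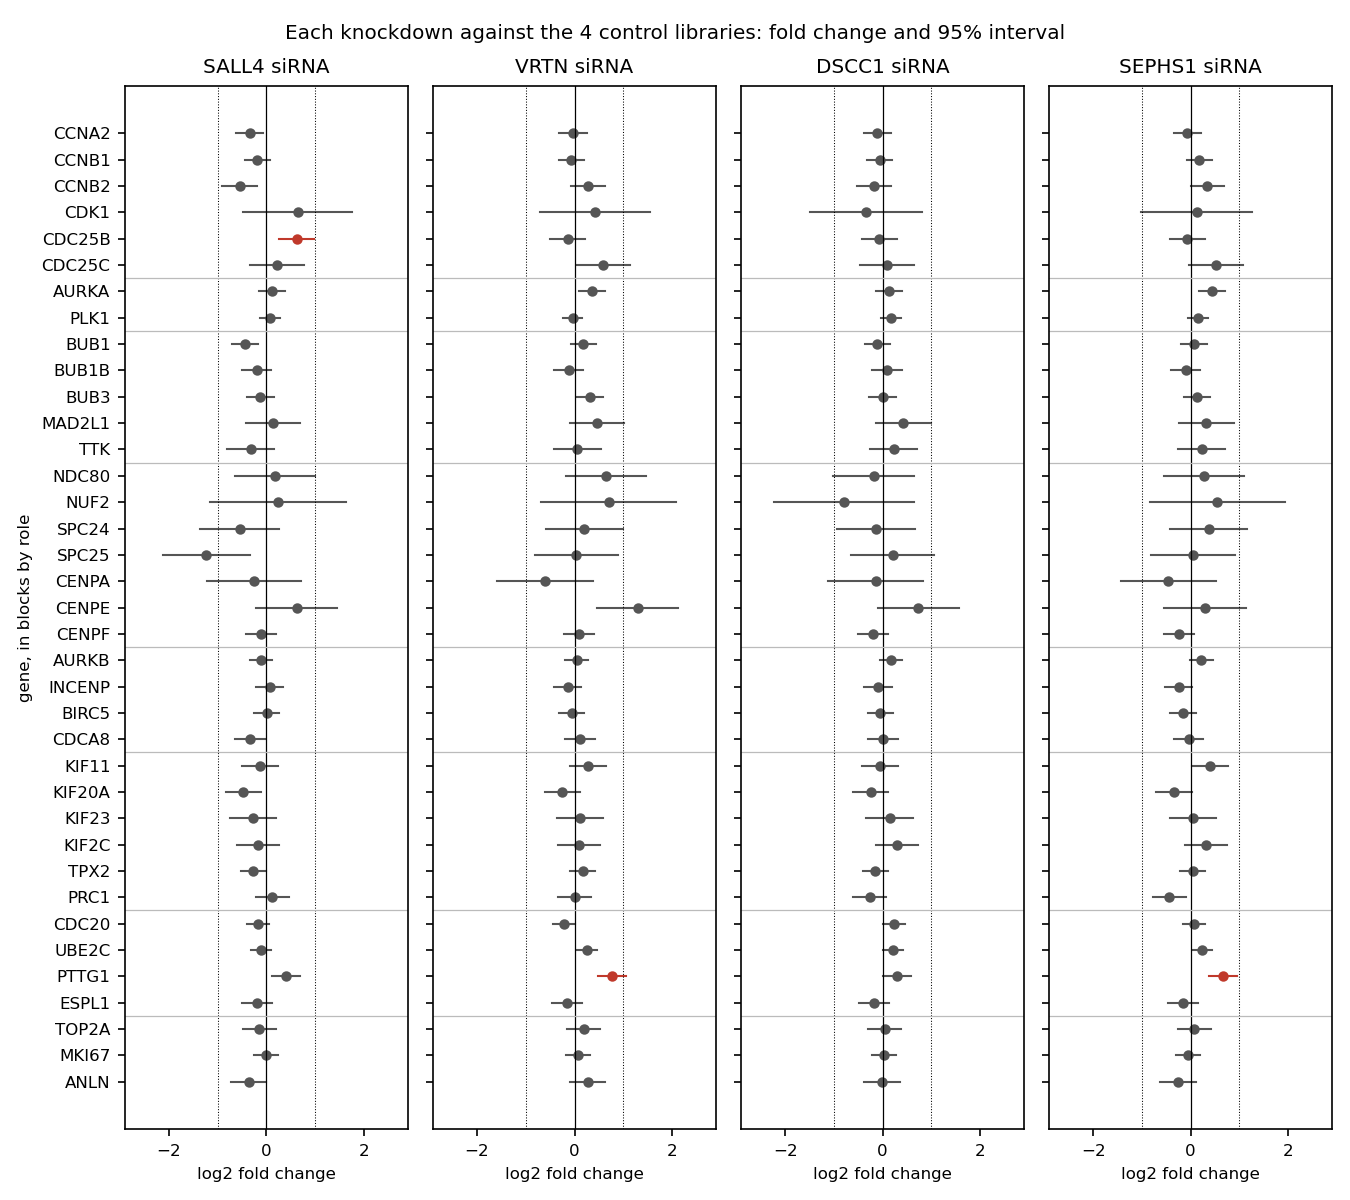
Each panel plots the log2 fold change of the 37 genes (points) with its 95% interval (lines) for 1 knockdown against the 4 control libraries; dotted lines mark 2-fold, and red marks a call. CDC25B with SALL4 siRNA and PTTG1 with VRTN and SEPHS1 siRNA are the calls, and most intervals lie within the dotted lines.

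PTTG1 codes for securin, the inhibitor of the protease separase (ESPL1), and lies on chromosome 5, 160421822 to 160428744, plus strand (GRCh38). Its level was 49.7 and 40.9 CPM in the Luciferase libraries and 62.6 and 52.0 in the Control libraries. It was 90.7, 90.4 and 81.0 with VRTN siRNA and 78.8, 81.9 and 80.6 with SEPHS1 siRNA. All 6 of these libraries were above all 4 controls. The rise over the control mean of 51.3 ± 8.93 CPM (SD, n = 4) was 0.78 on the log2 scale for VRTN, to 87.4 ± 5.52 (n = 3; SE 0.14, edgeR adjusted p = 0.00168), and 0.66 for SEPHS1, to 80.4 ± 1.57 (n = 3; SE 0.14, edgeR adjusted p = 0.00989).

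With SALL4 siRNA PTTG1 was at 57.7, 60.5 and 83.1 CPM and with DSCC1 siRNA at 66.1, 70.0 and 51.9. Both groups overlapped the controls, with log2 fold changes of 0.40 (adjusted p = 0.151) and 0.30 (adjusted p = 0.843). The SALL4 value was 0.23 without SALL4 replicate 3 and 0.50 without SALL4 replicate 1. Neither direct comparison between knockdowns passed the test for PTTG1, at -0.38 for SALL4 over VRTN (adjusted p = 0.246; -0.55 and adjusted p = 0.0285 without SALL4 replicate 3) and -0.36 for DSCC1 over SEPHS1 (adjusted p = 0.445).

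The 2 control siRNAs differed in PTTG1, with both Control libraries above both Luciferase libraries (log2 difference 0.34, adjusted p = 1). Against the Control libraries alone the call was lost, at 0.61 (adjusted p = 0.14) for VRTN and 0.49 (adjusted p = 0.287) for SEPHS1, and against replicate 1 of both controls it was 0.65 (adjusted p = 0.052) and 0.53 (adjusted p = 0.117). Both calls held without any single library. PTTG1 has a near-identical processed copy, PTTG3P, which was read 12, 8 and 14 times with VRTN siRNA, 0, 7 and 4 times with SEPHS1 siRNA and 1 or 2 times in controls. PTTG1 itself was read 1024 to 2226 times per library, and the treatment of reads shared with the copy is not given in the sources used here.

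The partners of PTTG1 at anaphase onset did not pass the test in any comparison with controls. ESPL1, the separase it holds, had a log2 fold change between -0.15 and -0.19 in all 4 comparisons. UBE2C, the ubiquitin-conjugating enzyme of the anaphase-promoting complex, was between -0.12 and 0.26, and CDC20, its activator, between -0.21 and 0.23.

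**Figure D3:**
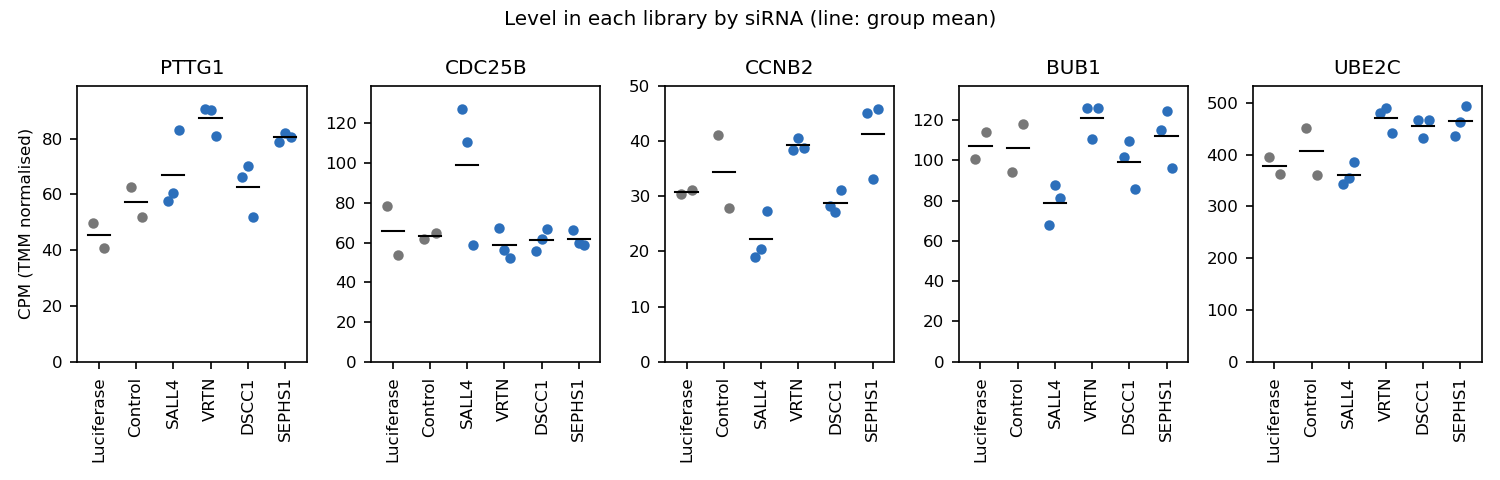
Points are the TMM-normalised CPM of each library for the 5 genes called in any comparison, by siRNA (controls in grey), and lines are group means. PTTG1 is above every control with VRTN and SEPHS1 siRNA, and replicate 3 of SALL4 lies with the controls for CDC25B.

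CDC25B, a phosphatase that activates CDK1 at the G2 to M transition, lies on chromosome 20, 3786772 to 3806121, plus strand. It was at 127, 111 and 58.7 CPM with SALL4 siRNA, against 78.5 and 53.5 in the Luciferase and 61.6 and 64.7 in the Control libraries. Replicates 1 and 2 were above every other library of the study, and replicate 3 was within the control range. The log2 fold change over controls was 0.62 (SE 0.17, adjusted p = 0.0429). It was 0.90 (adjusted p = 7.47e-05) without SALL4 replicate 3, 0.39 (adjusted p = 0.433) without SALL4 replicate 1 and 0.54 (adjusted p = 0.233) without SALL4 replicate 2.

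The call for CDC25B was close to the threshold in other ways. It was lost without Luciferase replicate 2 (adjusted p = 0.118), without DSCC1 replicate 1, 2 or 3 (0.0616, 0.0613 and 0.0537), without SEPHS1 replicate 2 (0.0525), without VRTN replicate 2 (0.0525) and with limma-voom (0.0848). With VRTN siRNA CDC25B was at 67.5, 56.4 and 52.1 CPM, with DSCC1 siRNA at 55.9, 61.7 and 67.0, and with SEPHS1 siRNA at 66.4, 59.8 and 58.9, all inside the control range or just under it. CDKN1A moved with it across the SALL4 libraries, and its part in the result was not tested.

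Below the threshold, several mitotic genes were lower in all 3 SALL4 libraries than in all 4 controls. This held for 9 of 37 genes (CCNB2, BUB1, BUB1B, SPC25, AURKB, CDCA8, KIF20A, TPX2 and ANLN), against 6.83% of all genes, and 1 of 37 was higher in all 3, CENPE, against 6.82%. At an unadjusted p under 0.05, 8 were lower and 2 higher, against 1147 and 1437 of all 19772 genes, and 24 of 37 fold changes were negative, against 9478 of 19772. Among them BUB1 had a value of -0.43 (SE 0.13, adjusted p = 0.0621) and CCNB2 of -0.55 (SE 0.17, adjusted p = 0.0819). SPC25, a subunit of the NDC80 complex that binds microtubules at the kinetochore, had the lowest value, -1.23 (SE 0.44, adjusted p = 0.151), at 2.04, 3.52 and 1.02 CPM against 3.80 to 6.56 in controls.

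These values changed with single libraries. Without SALL4 replicate 3 edgeR called 3 of 37 genes, CDC25B and, lower, CCNB2 (-0.71, adjusted p = 0.0165) and CCNA2 (-0.50, adjusted p = 0.0337). The share of all genes called in that refit is not given here, so this count has no background beside it. BUB1 was called lower without Luciferase replicate 1 (-0.48, adjusted p = 0.0414) or Control replicate 1 (-0.51, adjusted p = 0.027), and CCNB2 without Control replicate 2 (-0.68, adjusted p = 0.0343). The median ratio of the 37 genes to controls was -0.23, -0.10 and -0.07 in SALL4 replicates 1, 2 and 3.

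With VRTN siRNA the direction of most genes was the other way. Of 37 genes 26 had a positive fold change, 5 (CDC25C, AURKA, BUB3, CENPE and PTTG1) were higher in all 3 libraries than in all 4 controls, against 5.27% of all genes, and 0 were lower in all 3, against 6.68%. At an unadjusted p under 0.05, 6 were higher and 0 lower, against 844 and 1015 of all 19772 genes, of which 10210 had a positive fold change. The median ratio of the 37 genes to controls was 0.20, 0.16 and 0.003 in VRTN replicates 1, 2 and 3, and 28, 26 and 19 of the 37 were above the control mean. Replicate 3 thus lay near the controls; its summed mesenchyme markers were also the lowest of the group, at 790 CPM against 1137 and 1184 in replicates 1 and 2, and the part of this in the result was not tested. CENPE, a kinesin that moves chromosomes to the spindle equator, was at 7.30, 5.75 and 6.70 CPM against 2.35 to 2.88 in controls, or 1.30 on the log2 scale (SE 0.41, adjusted p = 0.147), and DESeq2 called it (adjusted p = 0.0189). It was read only 57 to 179 times per library. AURKA, the kinase that matures centrosomes, was at 65.2, 58.1 and 53.8 CPM against 44.9 to 47.4 (0.35, SE 0.13, adjusted p = 0.292). The fold changes with VRTN siRNA differed by GC content. Their median was 0.23 in the 18 genes whose longest transcript has under 45% GC and 0.04 in the other 19. Over all protein-coding genes tested these classes had medians of 0.09 and -0.04. The part of GC content in these values was not tested.

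With SEPHS1 siRNA 3 of 37 genes were higher in all 3 libraries than in every control (CDC25C, AURKA and PTTG1), against 5.25% of all genes, and 3 were lower (INCENP, BIRC5 and KIF20A), against 7.76%. AURKA was at 64.6, 62.8 and 61.0 CPM, clear of the control range of 44.9 to 47.4. Its log2 fold change was 0.44 (SE 0.13, adjusted p = 0.0912), and DESeq2 called it (adjusted p = 0.00905). PRC1, which bundles antiparallel microtubules in the spindle midzone, was at 42.0, 30.4 and 27.8 CPM against 35.9 to 54.4 in controls, -0.44 (SE 0.17, adjusted p = 0.231). It ranged from -0.64 (without SEPHS1 replicate 1) to -0.27 (without Luciferase replicate 1) and was called against replicate 1 of both controls (-0.69, adjusted p = 0.0362). Of the PRC1 exons 58.4% overlap other annotated genes, so its counts are uncertain. The mitochondrial share was higher with SEPHS1 siRNA than in every control, and its part in these values was not tested.

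With DSCC1 siRNA, which targets a cohesion factor, the mitotic genes differed least from controls. CDC20 was at 182, 176 and 180 CPM against 144 to 163, with no overlap, or 0.23 on the log2 scale (SE 0.11, adjusted p = 0.843). UBE2C had 0.21 (SE 0.10, adjusted p = 0.843), with libraries at 466, 432 and 466 CPM that overlapped the controls at 361 to 452, and was 0.14 without Control replicate 2 and 0.30 without Control replicate 1. The mitochondrial share was higher with DSCC1 siRNA than in every control, and its part was not tested. In all, 3 of 37 were higher in every library (CENPE, AURKB and CDC20), against 4.61% of all genes, and 1 was lower (TPX2), against 4.49%.

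SALL4 and VRTN siRNA were both harvested at 48 h, so they can be compared directly, without the controls. Here 4 of 37 genes were called, 1 higher with SALL4 siRNA and 3 lower, against 2.44% of all genes (1.73% higher and 0.703% lower). The higher gene was CDC25B, and the lower ones were CCNB2, BUB1 and UBE2C. Of the 37 fold changes 29 were negative, with a median of -0.32, against 0 over all genes. The median was -0.21 without SALL4 replicate 1, -0.22 without VRTN replicate 1 and -0.37 without SALL4 replicate 3. In 12 genes all 3 SALL4 libraries were below all 3 VRTN libraries (CCNB2, CDC25C, AURKA, BUB1, BUB3, SPC25, AURKB, CDCA8, TPX2, UBE2C, TOP2A and ANLN), against 7.6% of all genes, and in 0 were they all above, against 8.63%.

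CCNB2, a B-type cyclin that activates CDK1 (chromosome 15, 59105078 to 59125045, plus strand), was at 19, 20.4 and 27.4 CPM with SALL4 and at 38.5, 40.6 and 38.8 with VRTN siRNA. Controls were at 30.4, 31.1, 41.1 and 27.8, so the SALL4 libraries were below them and the VRTN libraries inside their range. The log2 difference was -0.82 (SE 0.18, adjusted p = 0.00811). It was -0.72 (adjusted p = 0.081) without SALL4 replicate 1 and -0.75 (adjusted p = 0.07) without SALL4 replicate 2.

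BUB1, a checkpoint kinase at the kinetochore (chromosome 2, 110637698 to 110678114, minus strand), was at 67.8, 87.8 and 81.4 CPM with SALL4 and 126, 111 and 126 with VRTN siRNA. Controls were at 101, 114, 94.1 and 118. The SALL4 libraries were below every control, and 2 of the VRTN libraries were above them. The log2 difference was -0.62 (SE 0.14, adjusted p = 0.00815), and -0.52 (adjusted p = 0.092) without SALL4 replicate 1 and -0.58 (adjusted p = 0.0518) without VRTN replicate 1.

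CDC25B had a log2 difference of 0.75 (SE 0.19, adjusted p = 0.0201), with the level in SALL4 replicate 3 among those of the VRTN libraries. Without SALL4 replicate 3 it was 1.03 (adjusted p = 2.21e-05). Without SALL4 replicate 1 it was 0.53 (adjusted p = 0.262), without SALL4 replicate 2 the adjusted p was 0.117, without VRTN replicate 2 it was 0.0976 and without VRTN replicate 3 it was 0.101.

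UBE2C (chromosome 20, 45812576 to 45816957, plus strand) was at 343, 355 and 386 CPM with SALL4 and at 481, 490 and 441 with VRTN siRNA, against 361 to 452 in controls. The log2 difference was -0.38 (SE 0.11, adjusted p = 0.0475). It was no longer called without SALL4 replicate 1 (0.208), SALL4 replicate 2 (0.194), VRTN replicate 1 (0.169), VRTN replicate 2 (0.181), SEPHS1 replicate 2 (0.065) or DSCC1 replicate 1, 2 or 3 (0.0638, 0.0644 and 0.0614).

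**Figure D4:**
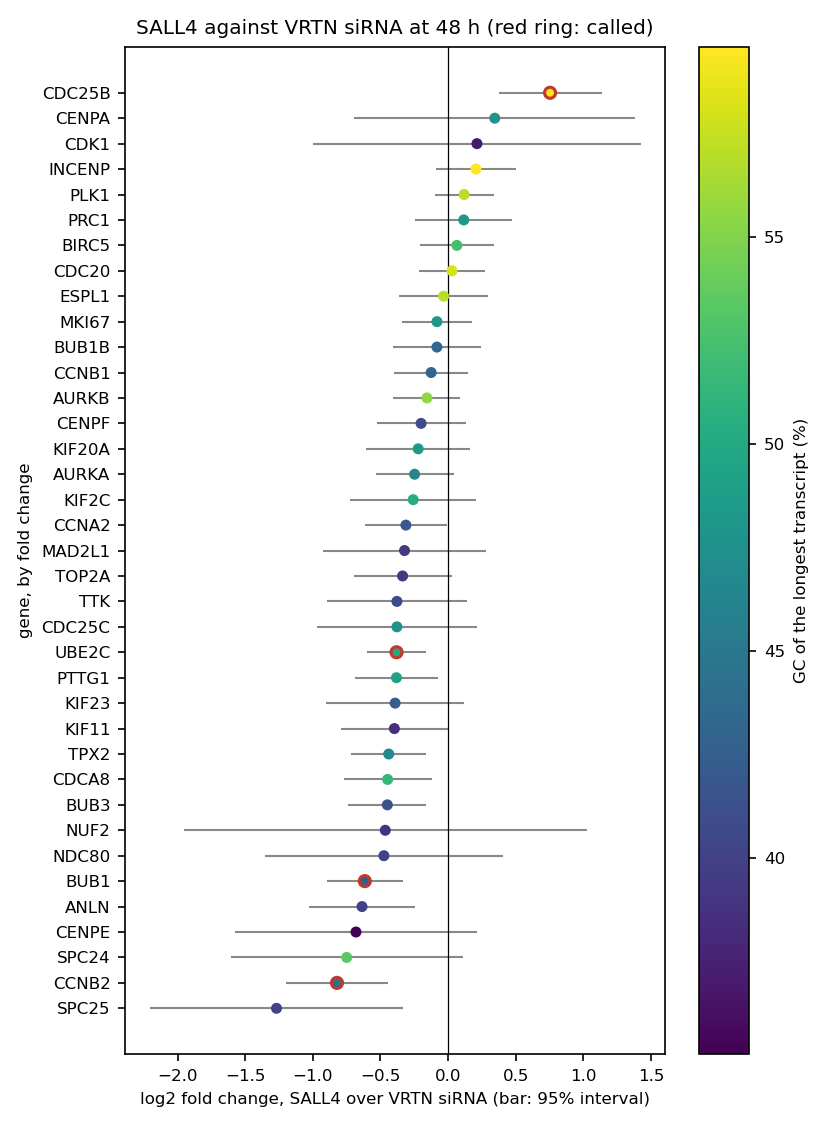
Points are the log2 fold change of SALL4 over VRTN siRNA for the 37 genes in order, with the 95% interval, coloured by the GC content of the longest transcript; a red ring marks a call. Most points are left of 0, and the darker, AT-rich genes lie mostly in the lower part.

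The difference between SALL4 and VRTN siRNA moved with GC content. Among the 18 genes whose longest transcript has under 45% GC, 17 had a negative log2 difference, with a median of -0.39, and among the other 19 genes 12 did, with a median of -0.16. Over all protein-coding genes tested the same classes had medians of -0.11 and 0.05. Against controls these classes of the mitotic genes had medians of 0.23 and 0.04 with VRTN siRNA and -0.17 and -0.11 with SALL4 siRNA. A slope on GC, per 10 points of GC, was taken from each library's log2 ratio to the mean of all 16 libraries. It was 0.143, 0.0307 and -0.0023 in SALL4 replicates 1 to 3 and -0.0903, -0.103 and -0.0232 in VRTN replicates 1 to 3. In controls it was -0.0035 to 0.0288. With an offset for GC and length added to the fit, after these values had been seen, the median was -0.23 and 2 of the 37 genes were called, CCNB2 and BUB1. The share of all genes called with the offset is not given here. CDC25B had an adjusted p of 0.0521 and UBE2C of 0.0602 in that fit.

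DSCC1 and SEPHS1 siRNA were both harvested at 72 h, and edgeR called 0 of 37 genes between them, against 0.268% of all genes (0.238% higher and 0.0303% lower). At an unadjusted p under 0.05, 0 were higher and 4 lower, against 1161 and 733 of all 19772 genes. DESeq2 and limma-voom called 0 of 37. The median was -0.02. The 3 genes of smallest p were CCNB2 (-0.52, SE 0.18, adjusted p = 0.309), PTTG1 and KIF11 (-0.45, SE 0.20, adjusted p = 0.456), the motor that pushes spindle poles apart. KIF11 was at -0.24 without SEPHS1 replicate 3, -0.26 without DSCC1 replicate 1 and -0.61 without SEPHS1 replicate 1. Without SEPHS1 replicate 1 the median was 0.03. CCNB2 was at 28.3, 27.2 and 31.1 CPM with DSCC1 and at 33.1 to 45.8 with SEPHS1 siRNA, with no overlap. In 3 of 37 genes every DSCC1 library was above every SEPHS1 library, against 8.5% of all genes, and in 5 below, against 5.51%. Control against Luciferase siRNA also called 0 of 37, as it did over all genes (0%), and DESeq2 and limma-voom called 0. At an unadjusted p under 0.05 there were 0 of 37, against 111 higher and 100 lower of all 19772 genes. In 7 genes both Control libraries were above both Luciferase libraries, against 14.7% of all genes, and in 3 below, against 13.6%.

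Levels per kb of merged exons differed widely between the genes in controls. UBE2C was the highest at 305 CPM per kb, followed by CDC20 at 75.1, PLK1, the kinase that promotes centrosome maturation and mitotic exit, at 50.7, AURKB at 49.8 and CCNB1 at 46.2. CDK1, the kinase partner of these cyclins, was 35th of 37 at 0.711, NUF2 was at 0.527 and CENPE at 0.283. Genes of higher GC content were generally at a higher level per kb, with a Spearman correlation of 0.579 across the 37 genes, against 0.210 across 14577 protein-coding genes tested; the genes share the same 4 libraries, and this is a description. CDK1 was read 23 to 163 times per library, so its low level and wide interval go together.

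**Figure D5:**
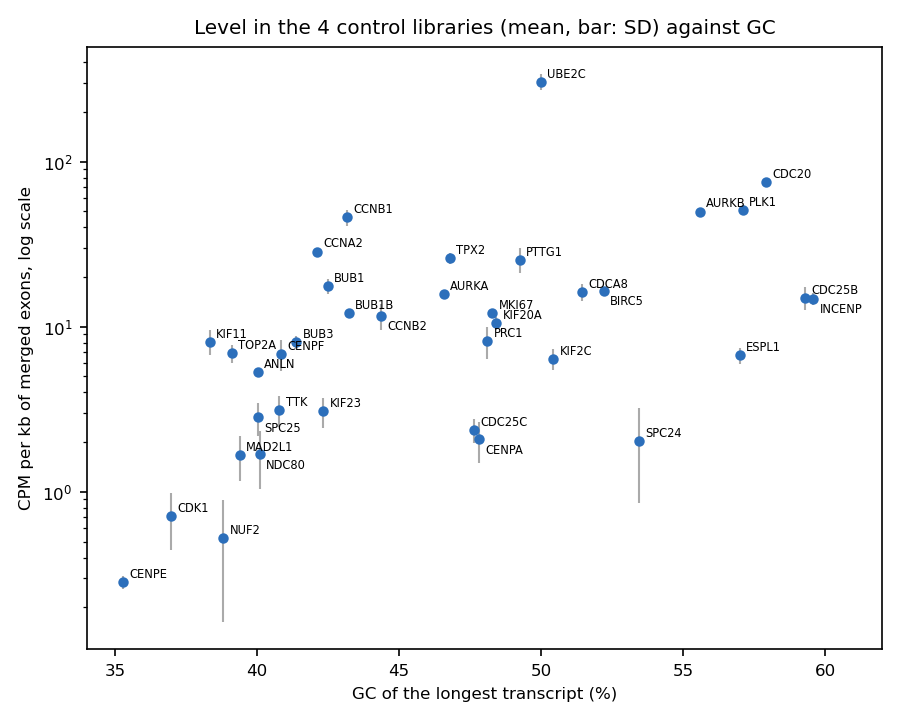
Points are the mean level of each of the 37 genes in the 4 control libraries, in CPM per kb of merged exons on a log axis, against the GC content of its longest transcript; bars are the SD. UBE2C is highest, and CENPE, NUF2 and CDK1, all AT-rich, are lowest.

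Genes around this set were counted from 8 further lists with 167 genes, all of them tested. No gene of the lists for APC/C subunits (17), cohesin (18), condensin (8), other spindle and cytokinesis genes (25) or G2/M transcription control (19) was called by edgeR in any comparison. At an unadjusted p under 0.05, of these 87 genes 4 were higher and 10 lower with SALL4, 1 and 3 with VRTN, 2 and 0 with DSCC1, and 7 and 4 with SEPHS1 siRNA. Over all 19772 genes the counts were 1437 and 1147 with SALL4, 844 and 1015 with VRTN, 667 and 488 with DSCC1, and 1068 and 1461 with SEPHS1 siRNA. DESeq2 called 2 of the 87 with SALL4, 2 with VRTN and 0 with DSCC1 or SEPHS1 siRNA, 2 between SALL4 and VRTN and 1 between DSCC1 and SEPHS1 siRNA. Limma-voom called 1 with VRTN siRNA, 1 between DSCC1 and SEPHS1 and 0 in the others. The shares of all genes called by DESeq2 and limma-voom are not given here, so these counts have no background beside them. Among 26 other kinetochore and centromere genes, PMF1, a subunit of the MIS12 complex, was higher with SALL4 siRNA (0.62, adjusted p = 0.0496). With SEPHS1 siRNA, SKA2, of a complex that tracks microtubule ends, was higher (0.53, adjusted p = 0.0453) and CENPM, a centromere protein, lower (-0.86, adjusted p = 0.0328).

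The list of brakes on CDK1 and G2 arrest had the most calls with SALL4 siRNA, 4 higher and 1 lower of 15, against 2.98% of all genes. CCNG1, a target of p53, was higher by 1.22 (SE 0.18, adjusted p = 3.82e-05), and PLK2, a polo-like kinase, was higher by 1.75 (SE 0.29, adjusted p = 0.000262). CDKN1A was among them, at 1.45 (adjusted p = 0.00515), a call that was lost without SALL4 replicate 1 (0.0941) or 2 (0.0714). It was also lost with DESeq2 (0.0653), limma-voom (0.115), the Luciferase siRNA alone as controls (0.131) and a fit of the compared groups only (0.127). SFN, the 14-3-3 protein that keeps CDK1 in the cytoplasm, was lower in 3 knockdowns, at -0.90 (adjusted p = 0.04997) with SALL4, -1.39 (adjusted p = 0.00333) with VRTN and -1.12 (adjusted p = 0.0211) with SEPHS1 siRNA, all against the same 4 controls.

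In the list for G1/S and DNA replication 3 of 39 were lower with SALL4 siRNA and 0 higher, against 1.13% and 1.85% of all genes. POLA1, the catalytic subunit of DNA polymerase alpha, fell by 0.70 (SE 0.17, adjusted p = 0.0159) and MCM5, of the replicative helicase, fell by 0.57 (SE 0.14, adjusted p = 0.0167). Both calls were lost without SALL4 replicate 1 (adjusted p = 0.154 and 0.17) or SALL4 replicate 2 (0.141 and 0.18). With VRTN siRNA CCND1, the cyclin that drives G1, fell by 0.94 (SE 0.16, adjusted p = 0.00124), and with SEPHS1 siRNA MCM10, which loads replication factors, fell by 0.70 (SE 0.18, adjusted p = 0.0402). With DSCC1 siRNA edgeR, DESeq2 and limma-voom called 0 of the 167 genes. At an unadjusted p under 0.05, 3 were higher and 6 lower, against 667 and 488 of all 19772 genes. Between SALL4 and VRTN siRNA CDKN1A (2.26, adjusted p = 9.78e-05), CCNG1 (0.76, adjusted p = 0.0219), CCND1 (1.30, adjusted p = 8.55e-06) and CCND2 (1.12, adjusted p = 0.00417) were higher.

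Several of these calls in the further lists depended on single libraries. For PMF1 the adjusted p passed 0.05 without any one of 11 libraries (Luciferase 1 and 2, Control 1 and 2, SALL4 1 and 2, DSCC1 1 and 2, DSCC1 3, VRTN 1 and 2), reaching 0.255. SFN with SALL4 siRNA was lost without Luciferase 1, Control 1 or 2, SALL4 1 or 3, DSCC1 1, 2 or 3, SEPHS1 2 and VRTN 1 or 2, up to 0.344, and with SEPHS1 siRNA without Luciferase 1, SEPHS1 2 or SEPHS1 3, up to 0.188. SKA2 was lost without Luciferase 1, Control 1 or 2, SALL4 2, DSCC1 1 or 2, SEPHS1 2 or 3 and VRTN 1 or 2, up to 0.289, CENPM without Luciferase 1, Control 2 and each of SEPHS1 1, 2 and 3, up to 0.122, and MCM10 without Control 2, DSCC1 1, 2 or 3, SEPHS1 1 or 3 and VRTN 2, up to 0.238. Between SALL4 and VRTN siRNA CCNG1 was lost without SALL4 1 or 2 or VRTN 1 or 3, up to 0.19, and CCND2 without SALL4 1 (0.103). With SEPHS1 siRNA limma-voom called 0 of the 167 genes, with adjusted p of 0.0984 for SKA2, 0.11 for CENPM, 0.113 for MCM10 and 0.0798 for SFN. Against either control siRNA alone PMF1, SKA2, CENPM, MCM10 and SFN with SALL4 or SEPHS1 siRNA were not called (adjusted p 0.0794 to 0.354).

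Summed markers of other cells differed in some groups. The summed level of 8 mesenchyme and fibroblast markers, most of it COL1A1, was 1815 to 2040 CPM in controls, 787 to 1686 with SALL4, 790 to 1184 with VRTN, 1957 to 2203 with DSCC1 and 1544 to 1837 with SEPHS1 siRNA, and COL1A1 was called lower with SALL4 (-0.82, adjusted p = 0.00498) and VRTN siRNA (-1.28, adjusted p = 4.64e-05). The other mesenchyme markers went the other way. Of the 6 that were tested, 5 had a positive log2 fold change with SALL4 siRNA (median over the 6 of 1.39). With VRTN siRNA 5 of the 6 were also positive (median 0.85), so the fall of the sum is that of COL1A1. The 8 pluripotency markers summed to 1945 to 2238 CPM in controls, 2056 to 2307 with SALL4, 2443 to 2569 with VRTN, 2296 to 2393 with DSCC1 and 2423 to 2511 with SEPHS1 siRNA. Trophoblast, endoderm and neural markers each summed to at most 23.4 CPM in any library, and CGA was at 0 in all. The part of these markers in the values of the mitotic genes was not tested.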

How the data were processed

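RNA of H9 cells was compared between 4 knockdowns and 2 control siRNAs, in 16 libraries of 80 bp single-end reads. The deposited file holds raw counts per Ensembl gene, which the authors made with STAR 2.4.0.1 as the aligner, HTSeq 0.9.1 as the counter and GRCh38 as the genome, per the submitters' processing notes. The annotation release, strand setting and treatment of shared reads are not given in the sources used here. Totals were 18597262 to 28662389 counts, with no molecular identifiers, so a limit set from counts alone covers counting error only. The protocol text also gives a growth period longer than the harvest times, and the harvest times were used.

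Gene symbols came from a gene name table, and positions, exon lengths and GC from GENCODE release 29. Genes were filtered with filterByExpr (19772 kept), scaled by TMM and tested with edgeR 4.0.16 (quasi-likelihood, 6 groups in 1 fit, R 4.3.3), with Benjamini-Hochberg adjustment over all genes tested. Contrasts were each knockdown minus the average of both control groups, SALL4 minus VRTN, DSCC1 minus SEPHS1 and Control minus Luciferase. The fit was also run on simulated counts without batch or GC structure, with changes set only in genes of higher level. That run does not cover batches or genes with few reads, and its result is not given here. Genes described in full were those called, or the 3 of smallest p where a comparison called fewer than 3, and from the further lists the 2 called genes of smallest p in each direction, not all of which are reported here; SPC25, CDKN1A, COL1A1, the genes whose libraries do not overlap, and those extreme in level were named after their values were seen. The members and lists were chosen with earlier results of these data known. The correlations of same-numbered libraries had a median near that of other pairs (closing section), and no block was used in the main fit. A batch shared by some libraries was not tested. Alternatives were DESeq2 1.42.0, limma-voom (limma 3.58.1), other scalings, filters and controls, a replicate block, only the groups compared, each library left out, and an added GC and length offset.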

Additional observations from a re-analysis of the deposited data

Results flagged for a closer look

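The direct comparison of SALL4 and VRTN siRNA, both at 48 h, is also a test of whether the effects of these knockdowns differ, since the shared controls cancel. By this test 4 of the 37 genes were called, against 2.44% of all genes tested. CCNB2 was lower with SALL4 siRNA by a log2 difference of -0.82, BUB1 by -0.62 and UBE2C by -0.38, and CDC25B was higher by 0.75. None of these 4 was called in a fit of the compared groups only. CDC25B and UBE2C were also not called with the GC and length offset, and each of the 4 was lost without some single libraries. SALL4 was targeted with esiRNA and VRTN with siRNA from another supplier, so the kind of siRNA and the target cannot be told apart.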

How the results depend on the processing

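With SALL4 siRNA the count of called genes, 1 of 37, was 2 with no filter on low counts, with DESeq2, with a replicate block and against replicate 2 of both control siRNAs, and 0 with a filter of 1 CPM in 3 libraries, limma-voom, a fit of the compared groups only, the Luciferase or the Control siRNA alone and replicate 1 of the controls. Leaving out single libraries gave 0 to 3. With VRTN siRNA it was 2 with DESeq2 and 0 against the Control siRNA alone or replicate 1 of the controls, and with SEPHS1 siRNA 2 with DESeq2 and 0 against the Control siRNA alone; against replicate 1 of the controls the 1 call was PRC1 and not PTTG1. Between SALL4 and VRTN siRNA the 4 calls became 0 with only those groups in the fit and 2 with the GC and length offset, an alternative chosen after the data were seen, and 0 to 7 with single libraries left out. DESeq2 added BUB3 (adjusted p = 0.032) and TPX2 (0.0344), limma-voom lost CDC25B (0.0741), and UBE2C was lost with DESeq2 size factors (0.0568) and upper quartile scaling (0.0514). The causes were not tested, except that fewer samples entered some fits. Among the mitotic genes called and the 3 of smallest p in a comparison with fewer calls, no direction reversed under these alternatives; the other named genes were not all followed here. Over all genes the SALL4 count of 590 ranged from 236 to 924. Shares of all genes called under each single alternative are not given here, so the counts of mitotic genes above have no background beside them. Same-numbered libraries of different groups had a median correlation of their deviations of 0.0229 over 36 pairs (9 above 0.1). It was -0.0029 over 70 pairs of different number (13 above 0.1). Single same-numbered pairs ran from -0.316 to 0.363, the highest being replicate 3 of SALL4 and VRTN siRNA. Pairs of different number ran from -0.4225 to 0.4225, the highest being SALL4 replicate 3 with Luciferase replicate 2. Deviations in a control group of 2 libraries mirror each other, so this median does not test for a batch shared by some libraries. With the replicate block CCNB2 was called with SALL4 siRNA (-0.63, adjusted p = 0.028). PTTG1 stayed called (0.78 with VRTN, 0.66 with SEPHS1). In the further lists PMF1 (0.0526) and SFN (0.0561) with SALL4 and SKA2 (0.0824) with SEPHS1 siRNA were lost. The share of promoters with a CHR was 64.5% with TTTGAA alone and 80.7% in a window of 200 bases before to 50 after the start. Depth limits CDK1, NUF2, CENPE, SPC25 and CENPA, whose intervals are the widest.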

Other observations

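The other kinetochore and centromere genes, outside the 37, had a positive log2 fold change in 20 of 26 genes with VRTN siRNA (median 0.23; edgeR called 0, with 4 higher and 0 lower at an unadjusted p under 0.05) and a negative one in 19 of 26 for SALL4 over VRTN siRNA (median -0.24; edgeR called 0, with 0 higher and 4 lower at an unadjusted p under 0.05), where the median over all genes was 0.02 and 0. Over all 19772 genes, 844 were higher and 1015 lower at an unadjusted p under 0.05 with VRTN siRNA, and 1388 and 1040 for SALL4 over VRTN siRNA. The 8 condensin subunits were all positive with VRTN siRNA (median 0.12), with 0 called by edgeR and 0 at an unadjusted p under 0.05.

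The transcript of SEPHS1, itself a target of the study, was lower with SALL4 siRNA than in controls, at -0.99 on the log2 scale (SE 0.13, adjusted p = 1.13e-05 in edgeR). ZFP42 was listed at 0 counts in all 16 libraries although its promoter drives the EGFP reporter of the line; a count of 0 allows up to 3 counts, 0.105 to 0.161 CPM of the library totals.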
